A study of Felis catus with 2 samples.

Results

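The immediate early response genes described here are C-FOS, FOSB, JUN, JUNB, ATF3, EGR1, EGR2, DUSP1, DUSP2 and IER2. They are 10 of the 32065 loci listed for RNA from the iridocorneal angle of 2 cats, and each was found under its exact name on 1 locus. The set was chosen by name as a functional class after the affected-to-normal ratios of these same libraries were known, so its ratios are given as a description without a test. The normal library came from a healthy cat that was unrelated to the affected one. The affected library came from a cat with primary congenital glaucoma, from a colony founded by Siamese cats in which the disease segregates with a frameshift insertion in LTBP2. Both cats were 2 months old. The piece of tissue held the angle and ciliary body together with adjacent sclera and trabecular meshwork, and 1 library was made per condition from polyadenylated RNA. Disease, individual animal, genetic background and the handling of the tissue therefore cannot be told apart.

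Immediate early genes are transcribed within minutes of a stimulus, without a need for new protein synthesis. Growth factors and many kinds of stress signal through MAP kinases and calcium to serum response factor and CREB, which are already bound at many of these promoters. Part of the induced set encodes transcription factors, among them the FOS and JUN subunits of the AP-1 dimer and the EGR zinc finger proteins. Another part, such as the dual specificity phosphatases, switches the signal off again. Their transcripts and proteins are short-lived, so a level records a recent state of the cells.

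Values are FPKM, read fragments divided by transcript length and by library size. Low values fall on whole multiples of a single fragment, from which scales of 71163253 fragments for the normal library and 67569186 for the affected one were recovered. A single fragment on 1 kilobase of effective transcript length was thus worth 0.0141 and 0.0148 FPKM. Intervals given for members assume 1 kilobase of effective length, are exact 95% intervals (Poisson for a level, Clopper-Pearson for a ratio) and cover counting error only. For each log2 ratio 1 FPKM was first added to both values, which understates the difference of low genes. A total of 16676 loci reached 1 FPKM in either library. On this scale 1358 of them, or 8.14%, were higher in the affected cat by 2-fold or more, and 8.75% were lower by as much. The median log2 ratio of these loci was -0.0047. All 10 genes passed that minimum, and 8 of them were 2-fold or more higher in the affected cat. Their median log2 ratio was 2.79, and none was lower than in the normal library.

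C-FOS, the founding subunit of AP-1, occupies chromosome B3 from 121635729 to 121639149 in the felCat5 assembly, which all positions below refer to. It was listed at 3.60 FPKM in the normal cat against 137.5 FPKM in the affected cat. The affected level was 38.2 times the normal one (33.8 to 43.5), and the log2 ratio of 4.91 was the highest among the 10 genes with 1 FPKM added. With 0.1 FPKM added, DUSP2 came first with 6.01 against 5.22 for C-FOS. C-FOS stood above 29.0% of the loci in the normal library and above 96.3% in the affected one. In bulk RNA, fewer cells of a type and less RNA per cell cannot be told apart. FOSB, a paralog that pairs with the same JUN partners, lies on chromosome E2 from 10302530 to 10307733. Its level was 0.187 FPKM in the normal cat against 5.97 FPKM in the affected cat. The fold of 31.9 was close to that of C-FOS but imprecise (18.9 to 62.0), because the normal value corresponds to only 13 fragments per kilobase. Of the pair, C-FOS had the higher level in both cats, and FOSB stood above 1.34% of the loci in the normal library and 41.8% in the affected one.

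**Figure D1:**
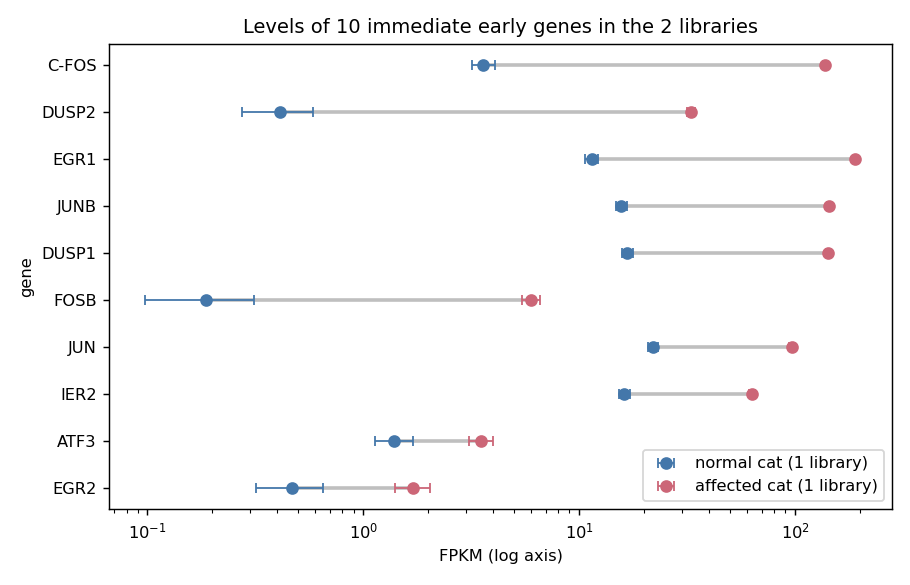
FPKM on a log axis for each of the 10 genes in the normal (blue) and affected (red) library, joined by a grey line. Error bars are exact 95% counting intervals for 1 kilobase of effective length. In each gene the affected point lies to the right of the normal one, from C-FOS (3.60 to 137.5 FPKM) down to EGR2 (0.469 to 1.70 FPKM).

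JUN and JUNB encode AP-1 partners that also pair with each other, JUN as the stronger activator. JUN, on chromosome C1 from 46923049 to 46926470, was listed at 21.98 FPKM in the normal cat against 96.1 FPKM in the affected cat, 4.37 times as much (4.14 to 4.62). JUNB, on chromosome A2 from 8873946 to 8874989, was listed at 15.7 and 142.8 FPKM, 9.13 times as much (8.57 to 9.72). The JUNB locus spans 1044 bases, the shortest of the 10, so the gene model behind its FPKM is short. In the normal library JUN stood above JUNB, and in the affected library JUNB stood above JUN. The summed FPKM of C-FOS and FOSB was 0.101 times that of JUN and JUNB in the normal cat and 0.601 times in the affected cat.

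EGR1, a zinc finger transcription factor that binds GC-rich promoters, had the highest level of the 10 in the affected library. The locus lies on chromosome A1 from 115463072 to 115467617. Its level was 11.4 FPKM in the normal cat against 189.4 FPKM in the affected cat, a fold of 16.6 (15.4 to 17.8) and a log2 ratio of 3.94. EGR2, a relative required for myelination by Schwann cells and for hindbrain patterning, lies on chromosome D2 from 26959078 to 26963458. It was near the floor, with 0.469 and 1.70 FPKM, a fold of 3.62 (2.47 to 5.58) from 33 and 115 fragments per kilobase. The EGR1 level was 24.3 times that of EGR2 in the normal cat and 111.6 times in the affected cat.

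ATF3, a stress-induced member of the ATF and CREB family that can pair with JUN proteins, lies on chromosome F1 from 30446632 to 30460570. Its level was 1.39 FPKM in the normal cat against 3.52 FPKM in the affected cat, a fold of 2.53 (1.99 to 3.23). An unnamed locus is listed with the same span as ATF3, with 0 FPKM in the normal cat against 0.666 FPKM in the affected cat, so fragments could have been divided between these loci. With 1 FPKM added, ATF3 and EGR2 had log2 ratios of 0.92 and 0.88 and stayed under 2-fold, and with 0.1 FPKM added these became 1.28 and 1.66. All 10 genes were then at least 2-fold higher, at a setting where 11.9% of all loci were higher and 13.0% lower by as much.

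DUSP1 and DUSP2 encode nuclear phosphatases that inactivate MAP kinases. DUSP1, on chromosome A1 from 176819463 to 176822465, was listed at 16.7 FPKM in the normal cat against 142.2 FPKM in the affected cat, a fold of 8.51 (8.01 to 9.05). DUSP2, best known from activated leukocytes, lies on chromosome A3 from 107209372 to 107211667. It was listed at 0.410 FPKM in the normal cat against 32.9 FPKM in the affected cat. That fold of 80.2 was the largest among the 10 genes and had a wide interval (56.0 to 120.7), since the normal value equals 29 fragments per kilobase. IER2, a small nuclear protein with a role in transcription, lies on chromosome A2 from 9124928 to 9127717. Its level was 16.1 FPKM in the normal cat against 63.2 FPKM in the affected cat, a fold of 3.92 (3.67 to 4.19). With 1 FPKM added, its log2 ratio of 1.91 was the smallest among the 8 genes that were at least 2-fold higher on that scale.

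The order of the 10 levels differed between the libraries. In the normal library it ran from JUN through DUSP1, IER2, JUNB, EGR1, C-FOS, ATF3, EGR2 and DUSP2 to FOSB. The intervals of DUSP1 and IER2, IER2 and JUNB, EGR2 and DUSP2, and DUSP2 and FOSB overlapped. In the affected library the order was EGR1, JUNB, DUSP1, C-FOS, JUN, IER2, DUSP2, FOSB, ATF3 and EGR2. Here the intervals of JUNB and DUSP1 and those of DUSP1 and C-FOS overlapped. The summed level of the 10 genes was 87.9 FPKM in the normal cat against 815.3 FPKM in the affected cat, or 0.0135% and 0.121% of all FPKM. C-FOS, JUNB, EGR1 and DUSP1 made up 53.9% of that sum in the normal cat and 75.1% in the affected cat.

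**Figure D2:**
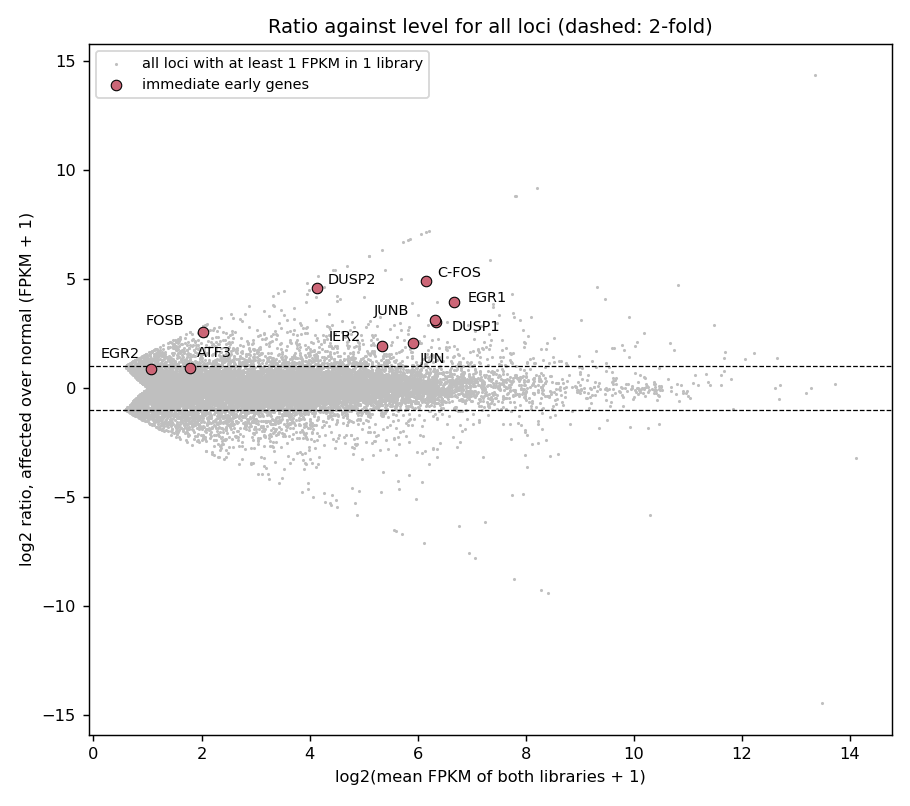
Log2 ratio of affected over normal FPKM + 1 (vertical) against log2 of the mean FPKM + 1 (horizontal) for 16676 loci (grey) and the 10 genes (red, named). Dashed lines mark 2-fold. C-FOS, DUSP2 and EGR1 lie at 4.91, 4.59 and 3.94, and ATF3 and EGR2 just under the upper dashed line.

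Among all 16676 loci, 20 had a higher log2 ratio than C-FOS, 25 a higher one than DUSP2 and 40 a higher one than EGR1. JUNB was exceeded by 69 loci, DUSP1 by 76, FOSB by 130, JUN by 248 and IER2 by 318. ATF3 and EGR2 lay within a broader crowd, exceeded by 1547 and 1658 loci. At the stricter threshold of 4-fold, 7 of the 10 genes were higher in the affected library, against 280 loci or 1.68% of all.

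Among 6038 genes with a symbol and a mean of at least 10 FPKM, C-FOS ranked 8th by log2 ratio, DUSP2 11th, EGR1 18th, JUNB 26th and DUSP1 31st. The genes above C-FOS were COL1A2, MFAP2, GUCA1B, APOA2, GLCE, TRIP10 and RTBDN. Of these, COL1A2, MFAP2, GLCE and TRIP10 are listed at 0 in the normal library, and a value of 0 can be a failed estimate in this table. The other three have low normal values, 0.0194 FPKM for the photoreceptor gene GUCA1B, 4.49 FPKM for the apolipoprotein gene APOA2 and 2.12 FPKM for the retinal gene RTBDN. Among genes listed above 0 in both libraries, C-FOS ranked 4th. Genes whose log2 ratio was among the nearest to the median of the 10 were PDE6H, CDH4 and RD3L, with 2.79, 2.78 and 2.78. This likeness rests on a single pair of libraries.

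Most close relatives of the 10 genes that were found by name did not share their ratios. FOSL1 and FOSL2, the other two FOS family genes, had nearly the same level in both cats, with 5.68 and 5.14 FPKM for FOSL1 and 11.1 and 12.4 FPKM for FOSL2 in the normal and affected library. C-FOS stood at 0.325 times the FOSL2 level in the normal cat and 11.1 times in the affected cat. Of 14 other AP-1 subunits, JUND, MAFF and ATF7 were not matched by exact name. Of the 11 that were matched, 2 were at least 2-fold higher and none was lower, with a median log2 ratio of 0.15. These 2 were BATF2, with 3.92 FPKM in the normal cat against 9.64 FPKM in the affected cat, and the small MAF protein gene MAFK, with 11.0 and 23.8 FPKM. The stress factor ATF4 was high in both, with 230.1 and 287.2 FPKM.

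EGR3, which is coexpressed with EGR1 in many settings, was 3.85 times as high in the affected library (2.73 to 5.48), at levels of 0.614 and 2.36 FPKM. EGR4 is listed at 0.0116 FPKM in the normal and at 0 in the affected library. Of the NR4A nuclear receptors, NR4A1 had 4.10 and 42.6 FPKM, a fold of 10.4 (9.19 to 11.7), whereas NR4A2 had 1.04 and 2.17 FPKM, a fold of 2.09 (1.56 to 2.79). NR4A3 stood at 0.331 FPKM in the normal cat and was 3.02 times as high in the affected cat (1.85 to 4.97). In both families a single gene carried most of the level.

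The other MAP kinase phosphatases did not share the ratios of DUSP1 and DUSP2. Of 7 that passed the minimum, none was at least 2-fold higher, and DUSP7 was lower with 18.4 FPKM in the normal cat against 7.61 FPKM in the affected cat. DUSP6, the cytoplasmic phosphatase of ERK, had 12.2 and 8.74 FPKM, and DUSP5, its nuclear counterpart, had 2.34 and 1.59 FPKM. DUSP4 was the highest by ratio, with 3.96 and 7.13 FPKM. The DUSP1 level was 1.37 times that of DUSP6 in the normal cat and 16.3 times in the affected cat.

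**Figure D3:**
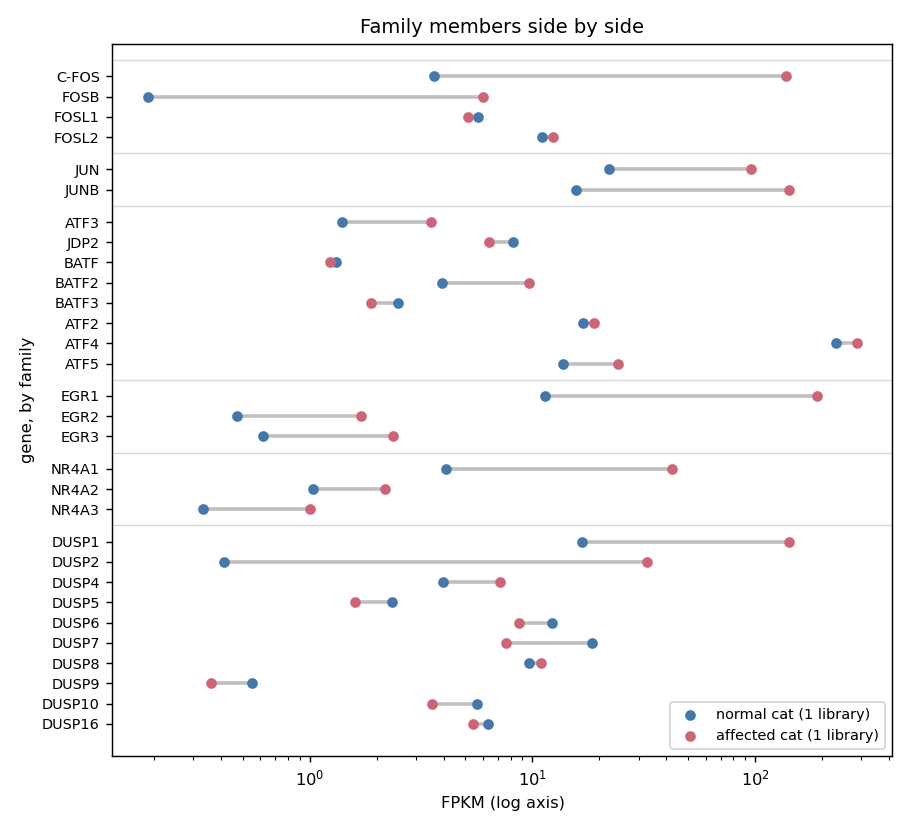
FPKM on a log axis for members of the FOS, JUN, ATF with BATF and JDP, EGR, NR4A and DUSP families in the normal (blue) and affected (red) library. The longest grey lines belong to DUSP2, C-FOS, FOSB, EGR1, NR4A1, JUNB and DUSP1, whereas FOSL1, FOSL2 and DUSP6 have both points close together.

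Further immediate early genes and family relatives of the 10 genes were split. The 57 that passed the minimum were 11 AP-1 subunits, 13 other transcription factors, 26 effectors and 7 phosphatases. The AP-1 subunits and phosphatases were listed by family, whether or not they are immediate early genes. Of the 57 genes, 16 or 28.1% were 2-fold or more higher in the affected cat and 5 or 8.77% were lower. Over all loci these shares were 8.14% and 8.75%. The median log2 ratio of the 57 genes was 0.18. These lists were written with results of the same libraries in view.

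Among the 13 other transcription factors, 5 were at least 2-fold higher. Besides NR4A1 and EGR3, these were IRF1, an interferon-induced factor, with 12.6 FPKM in the normal cat against 41.1 FPKM in the affected cat, CSRNP1 with 3.39 and 11.4 FPKM, and the Notch target HES1 with 50.1 and 133.9 FPKM. The span of IRF1 holds further loci, so its value is less certain. KLF10, a gene induced by TGF-beta, was lower with 19.8 FPKM in the normal cat against 8.04 FPKM in the affected cat. The median log2 ratio of this list was 0.64.

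Among the 26 effectors, 9 were at least 2-fold higher and 3 lower, with a median log2 ratio of 0.57. The antiproliferative gene BTG2 led them with 10.5 FPKM in the normal cat against 115.9 FPKM in the affected cat, a fold of 11.0 (10.2 to 11.9). GADD45B, a stress sensor, had 10.3 and 89.4 FPKM, and ZFP36, whose protein promotes decay of short-lived mRNAs, had 10.2 and 82.2 FPKM. These 3 genes had similar normal levels and folds of 8.02 to 11.0, on either side of those of JUNB and DUSP1. SIK1 had 5.96 and 30.7 FPKM, PPP1R15A 16.3 and 73.3 FPKM, and GADD45G 10.7 and 47.5 FPKM. The kinase gene SGK1, already abundant in the normal library at 138.3 FPKM, had 480.5 FPKM in the affected one. NFKBIA, the inhibitor of NF-kappaB, had 22.5 and 64.4 FPKM, and IER3 had 15.0 and 39.97 FPKM.

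The 3 lower effectors were PLK2 with 26.2 FPKM in the normal cat against 11.3 FPKM in the affected cat, IER5L with 11.4 and 4.76 FPKM, and the growth factor gene HBEGF with 4.70 and 1.56 FPKM. CYR61 and CTGF, matricellular genes induced through SRF and YAP, were near equality with 13.3 and 14.7 FPKM and with 45.7 and 41.5 FPKM. Higher levels were therefore not shared by every gene known as immediate early.

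**Figure D4:**
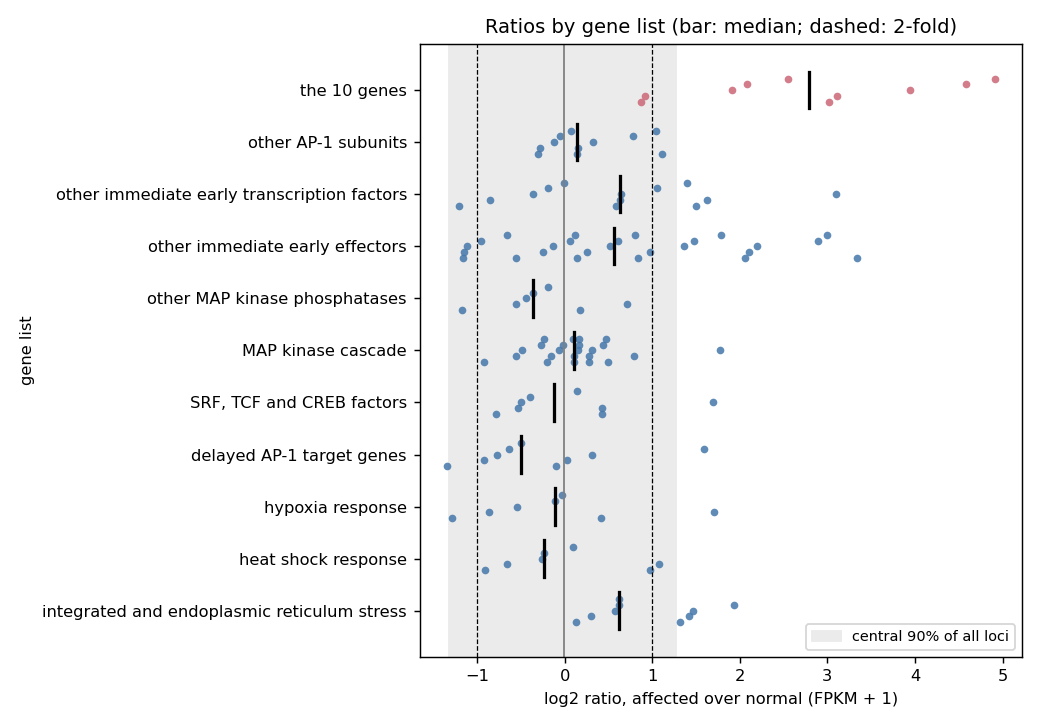
Log2 ratios of affected over normal FPKM + 1 (horizontal) for the 10 genes (red) and for 10 further gene lists (blue), each point 1 gene that passed the minimum, with black bars at the list medians. The grey band holds the central 90% of all loci and dashed lines mark 2-fold. The median of the 10 genes is 2.79, against 0.64 or less in each of the 10 further lists. The 12 lists of cell type and cell division markers are not shown. Their medians ran from -2.50 for corneal and conjunctival epithelium genes to 2.48 for photoreceptor genes.

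Nearly all genes of the signalling cascade upstream were under 2-fold apart. Of 23 MAP kinase cascade genes, none was at least 2-fold lower and only MAPK7 was higher, with 66.4 FPKM in the normal cat against 228.7 FPKM in the affected cat. The locus of MAPK7 overlaps that of MFAP4, so its fragments may belong to either gene. The lowest log2 ratio of this list was -0.91, of MAPK11, and the median was 0.11. Of 11 listed SRF, TCF and CREB factors 9 were matched by exact name. SRF itself and EP300 are listed under names joined with a further identifier and were not counted. Of the 8 that passed the minimum, CREM was at least 2-fold higher, with 6.97 FPKM in the normal cat against 24.8 FPKM in the affected cat. CREM also encodes a short repressor that is itself cAMP-inducible, and isoforms were not resolved here. ELK3 had the lowest log2 ratio of these factors, -0.78, and the list median was -0.13.

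Genes known as delayed targets of AP-1 showed no common direction. Of 9 that passed the minimum, 1 was at least 2-fold higher, with a log2 ratio of 1.59, and 1 was lower. The lower gene was SPP1, which encodes osteopontin, with 48.6 FPKM in the normal cat against 18.6 FPKM in the affected cat. The list median was -0.50. The matrix protease gene MMP9 had 1.24 and 0.435 FPKM.

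The stress lists differed among themselves. Of 9 integrated and endoplasmic reticulum stress genes, 4 were at least 2-fold higher and none lower, with a median log2 ratio of 0.62. DDIT3, which encodes the transcription factor CHOP, had 11.5 FPKM in the normal cat against 46.9 FPKM in the affected cat, HERPUD1 had 39.6 and 107.3 FPKM, ASNS 5.42 and 15.0 FPKM, and TRIB3 0.408 and 2.88 FPKM. Of 7 heat shock genes, only the co-chaperone gene BAG3 was at least 2-fold higher, with 9.08 and 20.2 FPKM. HSPH1 had the lowest log2 ratio, -0.91, and the list median was -0.23. Of 7 hypoxia genes, NDRG1 was higher with 59.8 and 197.0 FPKM, ADM was lower with 6.52 and 2.09 FPKM, and the list median was -0.11.

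C-FOS is a neighbour of LTBP2, the gene mutated in the affected line. The gap between the 2 loci on chromosome B3 is 586 kilobases and holds 26 listed loci, of which 15 passed the minimum. Of these, 1 unnamed locus was at least 2-fold higher and 1 gene, the growth factor gene PGF, was lower, and the median log2 ratio was -0.25. AREL1 had the highest ratio of the named loci in the gap, 0.36 on the log2 scale. LTBP2 itself was listed at 16.7 FPKM in the normal cat against 54.8 FPKM in the affected cat. ISCA2 is listed with the same locus centre as LTBP2, so fragments could have been divided between them. On the far side of C-FOS lie JDP2 and BATF, which encode further AP-1 partners. JDP2 was listed at 8.16 FPKM in the normal cat against 6.41 FPKM in the affected cat, and BATF at 1.31 and 1.23 FPKM. Named genes around C-FOS thus did not share its ratio.

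**Figure D5:**
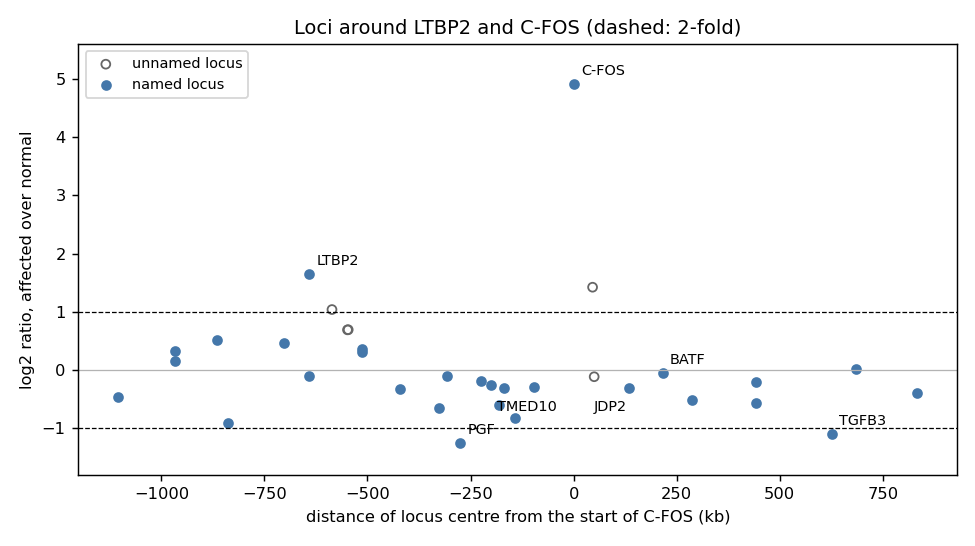
Log2 ratio of affected over normal FPKM + 1 (vertical) for loci around LTBP2 and C-FOS, against the distance of the locus centre from the start of C-FOS in kilobases. Filled points are named and open points unnamed loci. C-FOS stands alone at 4.91, LTBP2 lies at 1.66, and JDP2 and BATF lie near 0.

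The same held beside those other members that had a close named neighbour above the minimum, namely FOSB, JUNB, EGR2 and IER2. No such neighbour was listed beside JUN, EGR1, ATF3, DUSP1 or DUSP2. Within 10 kilobases of the 10 genes lie 8 named genes with a symbol, 6 of which passed the minimum. None of these was at least 2-fold higher or lower, and their log2 ratios ran from -0.78 for RNASEH2A, beside JUNB, to 0.32 for RTN2, beside FOSB.

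The dissected pieces differed in the genes of other cell types, and the part of this in the results above was not tested. Defining genes of the labelled tissue were present in both libraries. The trabecular meshwork list summed to 688.2 FPKM in the normal cat against 435.8 FPKM in the affected cat, with 3 of 5 genes at least 2-fold higher and 1 lower. In it CHI3L1 had the highest ratio, with 0.854 and 32.0 FPKM, and MGP the lowest, with 454.9 and 52.9 FPKM. The ciliary epithelium list summed to 1797 and 5166 FPKM, with 4 of 8 genes higher and 1 lower, from COL9A1 (403.5 and 1718 FPKM) to CA2 (370.2 and 111.9 FPKM).

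Photoreceptor genes were higher in the affected cat in 7 of 7, with sums of 332.8 and 1511 FPKM, from CNGA1 (0.314 and 17.7 FPKM) to ROM1 (69.8 and 201.9 FPKM). Their median log2 ratio was 2.48. Lens genes summed to 34926 and 49338 FPKM, with 7 of 11 higher and none lower, from BFSP1 (38.4 and 315.5 FPKM) to CRYAB (10017 and 8592 FPKM). Corneal and conjunctival epithelium genes were lower in 8 of 8, with sums of 577.5 and 23.7 FPKM, from DSG3 (1.68 and 0.0796 FPKM) to KRT12 (299.1 and 3.27 FPKM). Cell division genes were also lower in 8 of 8, with 114.9 and 18.8 FPKM, from AURKB (15.5 and 4.49 FPKM) to CDK1 (25.9 and 1.69 FPKM). Vascular endothelium genes were lower in 6 of 9, with 168.9 and 55.1 FPKM, from KDR (22.3 and 15.4 FPKM) to EMCN (28.7 and 5.35 FPKM).

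Red blood cell genes were lower in 3 of the 3 that passed the minimum, with 222.0 and 2.39 FPKM, from AHSP (3.06 and 0.731 FPKM) to HBA (213.7 and 1.64 FPKM), and HBM and SLC4A1 are listed at 0 in the affected library. Smooth muscle genes had sums of 1287 and 1114 FPKM, with 1 of 7 lower, from MYH11 (88.2 and 140.8 FPKM) to TAGLN (501.0 and 198.6 FPKM). Pigment cell genes had 2180 and 1612 FPKM, with 1 of 5 lower, from DCT (660.6 and 896.3 FPKM) to PMEL (493.0 and 134.4 FPKM). Nerve and Schwann cell genes had 198.5 and 164.5 FPKM, with 1 of 7 higher, 2 lower and a median log2 ratio of -0.56.

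Macrophage and leukocyte genes are given beside DUSP2, and summed to 37.6 FPKM in the normal cat against 46.0 FPKM in the affected cat. CD163, a macrophage gene, was the only 1 of the 8 that passed the minimum to be at least 2-fold higher with 1 FPKM added, with 3.67 and 13.0 FPKM, and none was lower. AIF1 had the lowest ratio, with 10.9 and 7.39 FPKM. The pan-leukocyte gene PTPRC had 2.13 and 1.23 FPKM, and LYZ is listed at 0 in both. The T cell gene CD3E had 1.28 and 3.26 FPKM, a fold of 2.55 (1.99 to 3.29) and, with 1 FPKM added, a log2 ratio of 0.90. The DUSP2 level of 32.9 FPKM in the affected cat was above that of each of the 9 listed leukocyte genes there.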

How the data were processed

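Reads were aligned by the authors with TopHat2 2.0.9, guided by Ensembl gene predictions on felCat5, and they deposited FPKM per locus calculated with Cufflinks 2.1.1. Scaling between the libraries is not given in the sources used here. Libraries were assigned from the labels and the column names. The 10 genes and all lists were chosen with earlier results of these data known. Names were matched exactly, so that loci with joined names stayed out of the lists, C-FOS was paired with RefSeq symbol FOS as its synonym, and 1 was added to each start because 22 loci start at 0. Where a name repeats, the row with the higher mean was used. With 1 library per condition no test was run.

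Log2 ratios used a pseudocount of 1 FPKM and loci that reached 1 FPKM in either library. Fragment scales were fitted to unnamed loci with under 10 fragments, where 96.5% (normal, 1909 loci) and 94.4% (affected, 1693 loci) of values were whole numbers to within 0.03, against 6% by chance. Transcript lengths are not given, so counting intervals assume 1 kilobase. The calculations were tested on simulated data.

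The text names the 10 genes, genes of 10 further lists and 12 marker lists that were at least 2-fold apart with a mean of at least 5 FPKM or that had the highest or lowest ratio of their list, genes ranking above the highest member and the 4 nearest to the median. Further genes (FOSL1, FOSL2, ATF4, EGR4, NR4A2, NR4A3, DUSP4, DUSP5, DUSP6, CYR61, CTGF, MMP9, PTPRC, CD3E and neighbours), and EGR3, HBEGF and TRIB3 with lower means, were named after their values were seen. A few genes that the rule selects are not reported here. Alternatives were a pseudocount of 0.1, 2 rescalings, no filter, a minimum mean of 5 FPKM, a 4-fold threshold and summed rows. Python 3.11.15, numpy 2.4.6, pandas 2.3.3, scipy 1.17.1 and matplotlib 3.10.9 were used.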

Additional observations from a re-analysis of the deposited data

How the results depend on the processing

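No paired analysis was possible because there is a single library for either condition, and for the same reason no library could be left out. With a pseudocount of 0.1 FPKM the median of the 10 genes was 3.13, C-FOS had 5.22, DUSP2 6.01, FOSB 4.40, EGR2 1.66 and ATF3 1.28, since the pseudocount dominates low normal values. The genes at least 2-fold lower then numbered 1 in the MAP kinase cascade, 2 among delayed AP-1 targets and 1 in the heat shock list. When FPKM were scaled to sum to 1000000 in either library, 9 of the 10 genes were at least 2-fold higher (as were 8.54% of all loci, with 10.6% lower), the median of the 10 genes was 2.96 and that of all loci -0.054. Under a minimum mean of 5 FPKM, FOSB, EGR2 and ATF3 dropped out, the median of the remaining 7 was 3.11, and no hypoxia gene was at least 2-fold lower. At 4-fold, 1 of the other immediate early transcription factors was higher and 0 lower, and 6 of the other effectors were higher and 0 lower. At that threshold 0 genes were higher or lower in the lists of other AP-1 subunits, phosphatases, MAP kinase cascade, SRF, TCF and CREB factors, delayed AP-1 targets, hypoxia, heat shock and integrated stress. Of 210 recomputed values, 185 stayed within the counting interval, 0.1 (medians) or 1.5 times (counts) of the value reported. FOSB, DUSP2 and EGR2 in the normal library rest on 13 to 33 fragments per kilobase, which limits their folds most.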

Other observations

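Unnamed loci lie close to several of the 10 genes, and they were looked at after their values had been seen. At lower coordinates than C-FOS, between 3642 and 8917 bases away, 4 unnamed loci of 507 to 1631 bases are listed, none above 0.448 FPKM. Taken as unspliced, their values equal 4, 3, 0 and 1 fragments for the normal cat against 15, 22, 10 and 14 for the affected cat. No fold is read from them, since they were picked with their values known and most of the fragments that define them are from the affected cat. An unnamed locus 2617 bases from DUSP2 had 3 fragments for the normal cat against 38 for the affected cat, and another 1322 bases from EGR2 had 6 and 15 fragments. An unnamed locus 3570 bases from IER2 was listed at 0.641 FPKM for the normal cat and 0.507 FPKM for the affected cat, and a long unnamed locus 6739 bases from EGR2 at 0.127 and 0.136 FPKM. Whether these loci belong to the neighbouring gene was not tested.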
